A study of Saccharomyces cerevisiae YPS1009 with 40 samples.

Results

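Baker's yeast that has used up its glucose leaves the cell cycle and enters quiescence, a resting state in which cells live on stored carbohydrate and respiration. The comparison described here set 2 libraries of the haploid YPS1009 euploid at day 7 of culture, labelled stationary phase, against 2 libraries of the same euploid in log phase, 4 of the 40 libraries in the series. The libraries were taken by their sample titles, and all genes were read. Both groups were MATa haploids of the strain AGY731, a derivative of the oak-soil isolate YPS1009 in which HO, the mating-type switching endonuclease, is replaced by a hygromycin-resistance marker. Both grew from colonies in shaken rich glucose medium (YPD) at 30 °C with no other treatment. The day 7 cultures were taken 168 hours after log phase by the study's Methods and after the start of culturing by the labels. Log-phase cultures were taken after 3 generations. The study describes the 2 cultures of a group as biological duplicates, and culture 1 and culture 2 carry the replicate numbers of the labels. The other 36 libraries (euploid days 1 and 3, and 4 strains with a duplicated chromosome) were used only as a measure of spread or as values set alongside.

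As background, growing yeast spends much of its transcription on ribosomes and on the glycolytic enzymes that ferment glucose to ethanol. When glucose runs out, the Snf1 kinase and the activators Cat8 and Adr1 switch on genes for using ethanol, acetate and fatty acids, and the loss of protein kinase A and TORC1 signalling frees Msn2, Msn4 and Gis1 to induce stress genes. Ribosomal protein and ribosome biogenesis genes are shut off in the same transition. Ribosome biogenesis promoters are known for a pair of sequence motifs, PAC and RRPE, and stress genes for the stress response element, STRE.

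The day 7 libraries held 1142125 and 1858064 counts, against 5687814 and 4182717 in log phase, within a range of 725316 to 7036849 over the series. Levels below are in normalised CPM unless given as counts or as CPM of total counts. Normalised CPM are counts scaled to a common library size by the trimmed mean of M-values (TMM). Each such level is a share of the RNA that was counted. Raw counts are not scaled for depth, so their order between cultures can differ from that of the normalised levels. Fewer cells of a type and less RNA per cell cannot be told apart in such data, and a higher share need not be more RNA per cell, since the Sz. pombe cells added for scaling were not analysed here. By the extraction protocol, glass beads were used on quiescent samples, so that step and the day 7 group cannot be told apart.

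The labels were checked on the deleted gene and on mating-type genes. HO had 4 and 8 counts at day 7, against 28 and 16 in log phase. As CPM of total counts these were 3.50 and 4.31 at day 7, against 4.92 and 3.83 in log phase. Some reads were thus assigned to the deleted gene in all 4 libraries. The a-cell pheromone receptor STE2 (YFL026W) had 4737 and 3383 counts in log phase, where the alpha-cell receptor STE3 had 1 and 1, as in MATa cells. At day 7 the a-cell genes were low: 4 of the 6 tested fell and none rose, and the 7 listed summed to 93.7 and 138 CPM of total counts at day 7, against 1618 and 1557 in log phase. Genes of alpha cells, which the cultures should not hold, summed to 121 and 98.5 CPM of total counts over 4 genes at day 7, against 21.4 and 23.7 in log phase. Of the 3 alpha-cell genes tested 2 rose and none fell (median 1.78). Their defining pheromone gene MF(ALPHA)1, too low to be tested, had 1 and 2 counts at day 7, against 1 and 1 in log phase. STE3 (YKL178C) had 38 and 72 counts at day 7. Sporulation genes, known from diploids, summed to 1602 and 1491 CPM of total counts over 22 genes at day 7, against 71.0 and 76.0 in log phase. Most of that sum was SPS100 (YHR139C), a spore wall gene, with 1316 and 2012 counts at day 7 and 2 and 3 in log phase. Their meiotic regulator NDT80 had 9 and 22 raw counts at day 7, against 59 and 49 in log phase. The log-phase libraries were deeper, so these raw counts alone do not show a lower share at day 7. Of the 14 sporulation genes tested 8 rose and 2 fell (median 1.99), against 26.7% higher and 21.8% lower over all genes tested. IME1, which rose, had 24 and 130 counts at day 7, against 2 and 0 in log phase. The part of other cell types in the results was not tested.

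The 2 day 7 cultures differed more than any other pair of the series. Over genes with enough reads in the pair (at least 20 counts in sum), 45.0% were more than 2-fold apart in the day 7 pair, against 0.201% to 31.5% in the 19 other pairs. The Spearman correlation of their CPM over those genes was 0.802 (0.861 to 0.995 in the other pairs), and chi-square per degree of freedom was 69.4 (3.05 to 18.7). The SD of the log2 gap between the cultures was 1.27 at day 7 and 0.22 in log phase. Over the 5496 genes with at least 80 counts in sum over the 8 euploid libraries, culture 1 stood closer to the day 3 libraries (Spearman 0.949 and 0.957) than to culture 2 (0.831). Culture 2 stood nearer to log phase (0.467 and 0.466) than culture 1 did (0.237 and 0.240). These correlations are across genes, which are not independent replicates, and describe the libraries only. Each result is therefore given for the pair and, where it matters, for each culture alone.

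With both cultures, 5548 genes had enough counts to be tested, and 1483 (26.7%) rose and 1212 (21.8%) fell at day 7 by edgeR's quasi-likelihood test at a Benjamini-Hochberg adjusted p of 0.05. Without the test, 2216 genes (39.9%) had both day 7 libraries above both log-phase libraries and 2395 (43.2%) had both below. Read alone, in a fit over 5864 genes that takes the spread from the other groups and assumes that a lone library varies like them, culture 1 had 2158 genes higher (36.8%) and 2276 lower (38.8%). Culture 2 had 1985 higher (33.9%) and 2134 lower (36.4%). The changes were large: the median was 2.71 on the log2 scale among genes that rose and -2.69 among those that fell, and 665 of all genes tested were past 16-fold, whether called or not. The median over all genes tested was -0.05. Scaled by total counts alone, the same test called 1571 genes higher and 691 lower, the median moved by 0.32, and the share of calls that were higher became 69.5%, against 55.0% under TMM. Without log-phase culture 1 the calls were 438 higher and 527 lower, and without log-phase culture 2 they were 439 and 545. Without day 7 culture 1 they were 2267 and 2273, and without day 7 culture 2 they were 2138 and 2485.

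The RNAs that rose furthest were those of small hydrophilic proteins, stationary-phase proteins and acetate transport. SIP18 (YMR175W), a hydrophilin, had 7414 and 6869 counts at day 7 and 0 and 0 in log phase, which makes it at least 7259.8-fold higher against a floor of 3 counts per library. RGI2, a protein of energy metabolism during respiration, had 2960 and 1120 counts at day 7 and none in either log-phase library, at least 2426-fold higher. SPG4, needed for survival in stationary phase, had 5702 and 3800 counts at day 7, against 1 and 0 in log phase, a pooled ratio of 24165 (95% exact interval 4336 to 954580). SPG1, another stationary-phase gene, had 4169 and 2004 counts at day 7, against 1 and 0 in log phase. The acetate transporter ADY2 (YCR010C) had 14596 and 6055 counts at day 7, against 3 and 0 in log phase, a pooled ratio of 17506 (95% exact interval 5989.5 to 84897). The hydrophilin GRE1 (YPL223C) had 12945 and 5003 normalised CPM at day 7, against 0.576 and 1.06 in log phase, a log2 change of 13.39 ± 1.05 (SE; adjusted p = 0.00582 by edgeR). The other genes of this kind were YMR206W and YER084W, both of unknown function, ERR3, an enolase-related gene with near-identical copies whose reads may be shared, and TMA10, a ribosome-associated protein. The rule that picked these genes asked that both day 7 cultures lie above both log-phase cultures. In all of these genes culture 1 lay above culture 2.

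The list of hydrophilins and stationary-phase stress proteins moved with them: 30 of its 38 tested members rose and 1 fell, with a median log2 change of 5.82, against -0.05 over all genes tested. HSP12 (YFL014W), a membrane-stabilising small heat-shock protein, had 6242 and 1773 normalised CPM at day 7, against 3.46 and 2.13 in log phase (10.45 ± 1.08 log2, SE; adjusted p = 0.00582 by edgeR). MSC1 had 10061 and 2907 normalised CPM at day 7 and 9.22 and 9.56 in log phase, and DDR2, a DNA damage and heat responsive gene, had 543 and 153 at day 7 and 0.576 and 0.531 in log phase. The whole list took 7.38% and 3.86% of counts at day 7, against 0.118% and 0.136% in log phase. DDR48, a flocculent-specific stress protein, had the opposite call, with 0 and 4 counts at day 7 and 32 and 23 in log phase, and fell (-2.44 on the log2 scale).

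**Figure D1:**
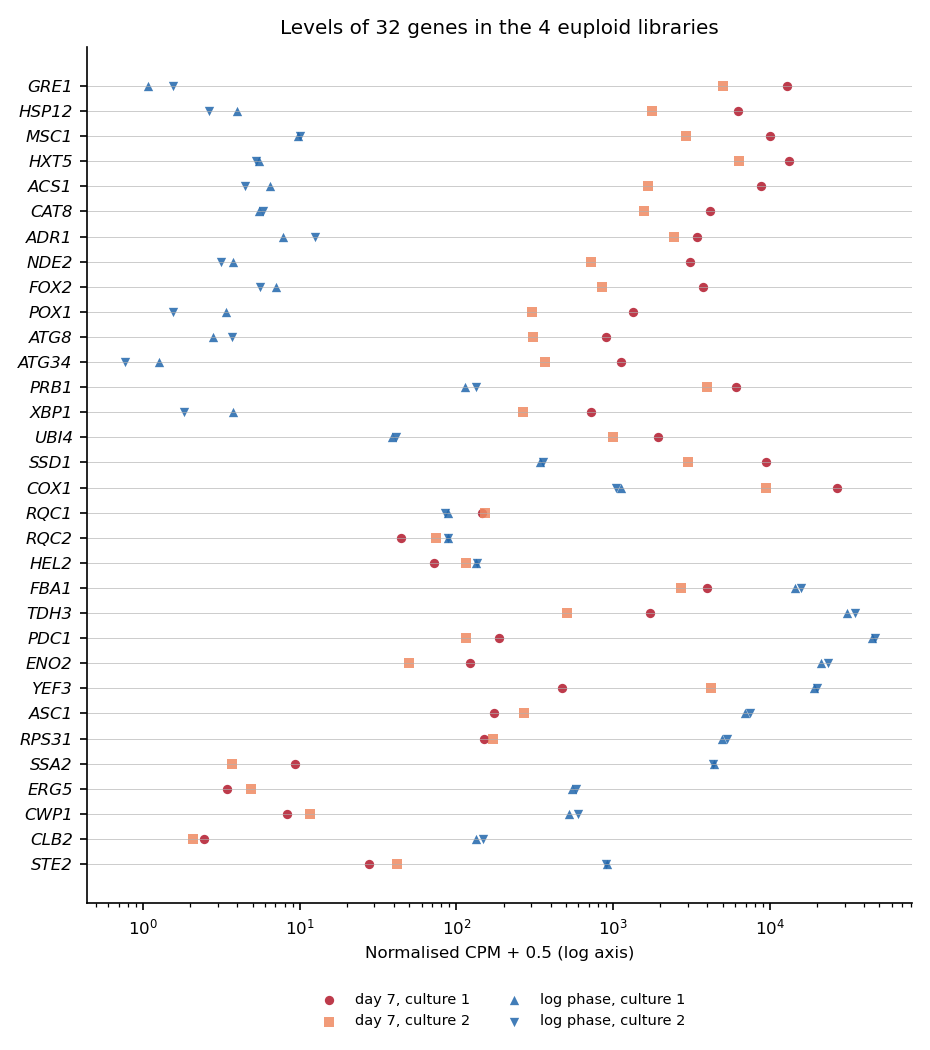
Levels of 32 genes in the 4 euploid libraries, in normalised CPM plus 0.5 on a log axis, with 1 point per library. Day 7 points lie right of log-phase points for GRE1 down to COX1 and left of them for FBA1 down to STE2, while RQC1, RQC2 and HEL2 stay close; GRE1 reads 12945 and 5003 at day 7.

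Genes that let cells grow on ethanol, acetate, lactate or fatty acids were nearly all up. Of 23 tested genes of gluconeogenesis, the glyoxylate cycle and their regulators, 22 rose and none fell (median 5.83). In all 23 both day 7 libraries were above both log-phase libraries, an order that held in 39.9% of all genes tested. The activator CAT8 (YMR280C) had 4143 and 1570.5 normalised CPM at day 7, against 4.99 and 5.31 in log phase (9.10 ± 0.83 log2, SE; adjusted p = 0.00582 by edgeR). ADR1 (YDR216W), the activator of ethanol and peroxisomal genes, had 3437 and 2431 at day 7 and 7.30 and 12 in log phase. Genes that these activators are known to switch on were also high. Acetyl-CoA synthetase ACS1 had 8788 and 1670.1 normalised CPM at day 7, against 5.95 and 3.98 in log phase, and the lactate carrier JEN1 had 1005 and 495 at day 7, against 1.54 and 1.59. The enzymes of the pathways varied in size of change. Phosphoenolpyruvate carboxykinase PCK1 rose by 6.74 on the log2 scale, malate synthase MLS1 by 6.21 and the peroxisomal citrate synthase CIT2 by 6.45. Isocitrate lyase ICL1 rose by 2.71 and fructose-bisphosphatase FBP1 by 2.61, where at day 1 of the same time course their changes were 8.23 and 8.42. These day 1 values come from a fit of the 8 euploid libraries and share the log-phase libraries. The alcohol dehydrogenase ADH2 was the member not called, with 3499.9 and 864 normalised CPM at day 7 and 735 and 780 in log phase (adjusted p = 0.148 by edgeR).

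Fatty acid beta-oxidation in the peroxisome rose with them, in 16 of 21 genes tested, and 1 fell (median 4.10). Fatty acyl-CoA oxidase POX1 (YGL205W) had 1341 and 303 normalised CPM at day 7, against 2.88 and 1.06 in log phase. The multifunctional enzyme FOX2 (YKR009C) had 3768 and 851 at day 7 and 6.53 and 5.05 in log phase, and the peroxisomal catalase CTA1 had 6284 and 1348 at day 7 and 29.4 and 27.4 in log phase. In all 3 the day 7 libraries lay far above log phase, with culture 1 more than 4-fold above culture 2. The member that fell was ANT1, the peroxisomal carrier of adenine nucleotides, with 1 and 25 counts at day 7 and 326 and 242 in log phase.

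Respiration itself was split by where its genes reside. All 6 tested protein genes of the mitochondrial genome rose (median 3.15), and they took 5.33% and 2.87% of counts at day 7, against 0.342% and 0.275% in log phase. COX1 (Q0045), a subunit of cytochrome c oxidase, had 26919 and 9507 normalised CPM at day 7, against 1119.6 and 1038 in log phase (4.08 ± 0.72 log2, SE; adjusted p = 0.0127 by edgeR). Of the 37 nuclear genes of the respiratory chain and ATP synthase, 2 rose and 15 fell in the pair (median -1.08). The median was -0.69 in culture 1 alone and -1.97 in culture 2 alone, against -0.19 and -0.12 over all genes tested. The pair of cytochrome c genes parted: CYC1 (YJR048W), the main form of growing cells, had 5.84 and 5.60 normalised CPM at day 7, against 393 and 372 in log phase, and CYC7, the form of low oxygen and stress, had 55.5 and 33.6 at day 7, against 0.384 and 0.797. The external NADH dehydrogenases parted likewise, with a log2 change of 9.31 ± 1.09 (SE) in NDE2 and -3.83 ± 0.62 in NDE1. ATP2, the catalytic beta subunit of ATP synthase, had 72.1 and 72.8 normalised CPM at day 7, against 1250.5 and 905 in log phase. In the tricarboxylic acid cycle 4 of 17 genes rose and 5 fell, shares near those over all genes tested (26.7% higher and 21.8% lower). Those that rose included SDH2 (5.33) and the minor mitochondrial citrate synthase CIT3 (5.50), and those that fell included SDH3 (-3.51). Of 74 mitochondrial ribosomal protein genes 5 rose and 7 fell, and their median of -0.20 became 0.10 when scaled by total counts alone.

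Fermentation genes were lower. Of 17 glycolytic genes, 12 fell and 4 rose (median -3.52), and the list took 0.865% and 0.811% of counts at day 7, against 8.21% and 8.80% in log phase. Enolase ENO2 (YHR174W) had 121 and 49.2 normalised CPM at day 7, against 21259 and 23570 in log phase (-8.05 ± 0.81 log2, SE; adjusted p = 0.00582 by edgeR). Pyruvate decarboxylase PDC1 (YLR044C), which starts the branch to ethanol, had 185 and 114 at day 7 and 44815 and 46534 in log phase. The 4 that rose were the isoenzymes of slow growth: the hexokinase HXK1 (4.18 on the log2 scale), glucokinase GLK1 (2.54), the pyruvate kinase PYK2 (3.57) and the glyceraldehyde-3-phosphate dehydrogenase TDH1 (5.80), while the glucose-repressing hexokinase HXK2 fell (-4.18). Several of these enzymes have near-identical copies (TDH2 and TDH3, ENO1 and ENO2), whose reads the counting may have split or dropped. Of 13 hexose transporters and sensors tested, 7 rose and 2 fell. HXT5, a transporter of non-growing cells, had 13325 and 6322 normalised CPM at day 7, against 4.99 and 4.78 in log phase, and the low-affinity carrier HXT3 had 4.87 and 64.8 at day 7, against 923 and 969.

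Storage carbohydrate genes rose in 13 of 19 members tested and fell in 3 (median 2.21). The glycogen branching enzyme GLC3 had 2213 and 660.5 normalised CPM at day 7, against 7.11 and 10.1 in log phase, and the neutral trehalase NTH2 had 1213 and 526 at day 7, against 12.1 and 9.83. Trehalose-6-phosphate synthase TPS1 was not called, and the cultures disagreed: 189.9 and 43.6 normalised CPM in cultures 1 and 2 at day 7, against 83.2 and 100.4 in log phase. The members that fell were UGP1, PGM1 and TPS3, of which UGP1 makes the UDP-glucose shared by glycogen, trehalose and cell wall (-3.39 on the log2 scale).

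Autophagy delivers cell contents to the vacuole, and most of its genes were higher. Of 30 tested, 26 rose and 1 fell (median 4.10). ATG8 (YBL078C), the lipid-linked protein of the autophagosome membrane, had 895 and 307 normalised CPM at day 7, against 2.30 and 3.19 in log phase (7.76 ± 0.84 log2, SE; adjusted p = 0.00582 by edgeR). Its initiating kinase ATG1 had 2894 and 1001 at day 7 and 18.1 and 16.5 in log phase. ATG34, a receptor for vacuolar hydrolases, had 1151 and 913 counts at day 7 and 4 and 1 in log phase, and ATG39, the receptor for nucleophagy, had 753 and 486 at day 7 and 1 and 1 in log phase. ATG27, a membrane protein of autophagic vesicle transport, fell (-1.65 on the log2 scale, adjusted p = 0.0447 by edgeR). Of 11 vacuolar proteases and their inhibitors, 5 rose and 1 fell. Proteinase B, PRB1, had 6070.5 and 3983 normalised CPM at day 7, against 113 and 133 in log phase, and aminopeptidase APE3 was the member that fell (-3.29).

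Ubiquitin genes moved in both directions. The stress polyubiquitin gene UBI4 (YLL039C) had 1934 and 992 normalised CPM at day 7, against 38.2 and 40.4 in log phase (5.22 ± 0.57 log2, SE; adjusted p = 0.00582 by edgeR). The genes that encode ubiquitin fused to a ribosomal protein fell: RPS31 had 150 and 169.5 at day 7, against 4953 and 5345 in log phase, and RPL40A and RPL40B changed by -4.78 and -4.75 on the log2 scale. In the list of ubiquitin and its recycling, 2 of 11 members rose, UBI4 and the deubiquitinase DOA4 (3.84), and 6 fell. Of 37 proteasome genes 3 rose and 2 fell in the pair (median 0.24), against 26.7% higher and 21.8% lower over all genes tested. The cultures differed, with a median of 0.63 in culture 1 alone and -0.50 in culture 2 alone. Over all genes tested these medians were -0.19 and -0.12. RPN4, the activator of proteasome genes, rose by 3.45 ± 0.42 (SE) on the log2 scale.

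Ribosome quality control clears peptides stuck on stalled ribosomes, and the study perturbs some of its genes. In the pair 1 of 21 genes tested rose and 3 fell (median -0.51), against 26.7% higher and 21.8% lower over all genes tested. The median was -0.93 in culture 1 alone and -0.39 in culture 2 alone, against -0.19 and -0.12 over all genes tested. RQC1 had 146 and 151 normalised CPM at day 7, against 87.4 and 84.2 in log phase, above log phase in both cultures but with an adjusted p of 0.105 by edgeR. RQC2, which adds tails of alanine and threonine to the stalled chain, had 43.8 and 73.2 at day 7, against 88.3 and 87.4 in log phase (adjusted p = 0.266 by edgeR). The ubiquitin ligase Ltn1, listed under its other name RKR1, had 67.2 and 112 at day 7, against 186 and 192 in log phase (adjusted p = 0.086 by edgeR). HEL2, which marks collided ribosomes, had 71.1 and 115 at day 7, against 132 and 135 in log phase. The 3 members that fell were ASC1, a protein of the small ribosomal subunit (-5.01 on the log2 scale), GCN1 (-3.87) and the recycling factor RLI1 (-2.42). UFD1, a partner of the Cdc48 segregase, rose by 2.73.

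Of 31 regulators of quiescence, 15 rose and 1 fell (median 1.54). The RNA-binding translational repressor SSD1 (YDR293C) had 9476 and 2996 normalised CPM at day 7, against 339.7 and 357 in log phase (4.16 ± 0.74 log2, SE; adjusted p = 0.013 by edgeR). XBP1, a repressor of cell-cycle genes, had 718 and 265 at day 7 and 3.26 and 1.33 in log phase. The kinase RIM15, which starts the quiescence programme, rose by 2.63 on the log2 scale, its effector IGO1 by 2.63 and the activator GIS1 by 3.54. MCK1, a kinase of the GSK3 family, fell (-1.80).

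In the list of heat-shock proteins and chaperones 8 of 26 rose and 8 fell, shares near those over all genes tested (26.7% higher and 21.8% lower). The median was 0.08 in culture 1 alone and -1.36 in culture 2 alone, against -0.19 and -0.12 over all genes tested. The stress-induced SSA3, a cytosolic Hsp70, had 2942 and 786 normalised CPM at day 7, against 18.1 and 22.8 in log phase, and HSP26, a small heat-shock protein, had 411 and 242 at day 7, against 4.22 and 6.11. SSA2 (YLL024C), the constitutive Hsp70, had 9 and 8 counts at day 7, against 22766 and 16327 in log phase (-9.61 ± 0.79 log2, SE; adjusted p = 0.00582 by edgeR). SSA1 and SSA2 are near-identical, so their reads may have been split or dropped. HSP104, the disaggregase, had 144 and 40.4 normalised CPM at day 7, against 92.4 and 102 in log phase in overlapping groups, and the stress-induced SSA4 was not called either (0.93 on the log2 scale). Of 29 oxidative stress genes 8 rose and 8 fell, shares near those over all genes tested (26.7% higher and 21.8% lower). The catalase CTT1 rose by 4.95 and the activator YAP1 by 3.37, while peroxiredoxin TSA1 fell (-4.44).

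Cytosolic ribosomal proteins had low levels in both cultures. In the small subunit 56 of 57 genes fell and none rose (median -4.55), and in the large subunit 79 of 81 fell and none rose (median -4.54). The small-subunit genes took 0.420% and 0.784% of counts at day 7, against 10.8% and 11% in log phase. The large-subunit genes took 0.441% and 1.02% at day 7, against 12.4% and 12.6% in log phase. The 3 genes not called, named after their values were seen, were RPS9A (-2.0), RPL43A (-1.68) and RPL15B (0.18 on the log2 scale), all of them copies in a duplicated pair. Of 32 translation factors 17 fell and 1 rose. The one that rose was HEF3 (YNL014W), a copy of elongation factor 3 that growing cells hardly use, with 912 and 310.3 normalised CPM at day 7, against 3.65 and 4.52 in log phase (7.22 ± 0.81 log2, SE; adjusted p = 0.00601 by edgeR). Its main form YEF3 had 470.5 and 4214 at day 7, against 18986 and 19949 in log phase, and was not called (adjusted p = 0.0766 by edgeR).

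The genes that fell furthest were of several kinds. SRL1 (YOR247W), a cell wall mannoprotein, had 0 and 1 counts at day 7, against 1611 and 1355 in log phase. The others were SSA2, PDC1, ENO2 and ERG5, given with their lists, INA1 (-7.94 on the log2 scale), the cysteine desulfhydrase IRC7 (-7.87), the wall protein TOS6 (-7.46), the eisosome protein SUR7 (-7.09) and the B-type cyclin CLB1 (-6.80). The rule that picked these 10 asked that both day 7 cultures lie below both log-phase cultures.

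Most genes of lipid synthesis fell. Of 24 sterol genes 22 fell and none rose (median -3.94), and of 11 fatty acid synthesis genes 10 fell and none rose (median -3.19). The sterol desaturase ERG5 (YMR015C) had 2.92 and 4.40 normalised CPM at day 7, against 547 and 576 in log phase (-7.19 ± 0.51 log2, SE; adjusted p = 0.00582 by edgeR). The methyltransferase ERG6 had 2.92 and 6.80 at day 7, against 534 and 527 in log phase. The uncalled sterol genes were ERG24 and HMG2, an HMG-CoA reductase isoform, which had 746 and 268 normalised CPM at day 7 and 128 and 135 in log phase (adjusted p = 0.0505 by edgeR). The fatty acid synthase subunits FAS1 and FAS2 had log2 changes of -1.94 and -1.60, against -5.27 in the elongase ELO1. Of 66 amino acid biosynthesis genes 27 fell and 4 rose. GDH3, an isoform of glutamate dehydrogenase used on poor carbon sources, rose by 8.46 ± 0.91 (SE), and the aspartate pathway gene HOM2 fell (-4.58). Of 19 purine and one-carbon genes 7 fell and 1 rose (median -2.16).

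Cell-cycle genes fell in 15 of 25 members and rose in 3 (median -2.20). The mitotic cyclin CLB2 (YPR119W) had 2 and 4 counts at day 7, against 692 and 554 in log phase (-6.31 ± 0.45 log2, SE; adjusted p = 0.00582 by edgeR), and the G1 cyclin CLN3 had 10 and 22 at day 7, against 727 and 500. The 3 that rose were the inhibitors WHI5 (2.28 on the log2 scale) and SIC1 (2.50) and the cyclin PCL5 (3.03). Of 11 histone genes 7 fell and none rose. Of 31 replication and nucleotide reduction genes 9 fell and 3 rose, against 21.8% lower and 26.7% higher over all genes tested. The largest change among these 31 was in RNR3, the damage-induced subunit of ribonucleotide reductase. RNR3 had 731 and 949 normalised CPM at day 7, against 3.46 and 2.13 in log phase. Cell wall genes were mixed, with 18 of 35 lower and 8 higher. The mannoprotein CWP1 had 7.79 and 11.2 at day 7, against 522 and 597 in log phase, whereas GSC2, the glucan synthase of sporulation and stress, had 7203 and 3951 at day 7, against 84.1 and 75.7. In the decay of messenger RNA 9 of 27 genes fell and 3 rose, which were the decapping activators EDC2 and EDC1 and the helicase DHH1 (2.34 on the log2 scale). RNA polymerase II had 4 of 12 subunits lower and none higher, and its largest subunit RPO21 was not called, with 2874 and 1227 normalised CPM at day 7, against 769 and 853 in log phase.

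**Figure D2:**
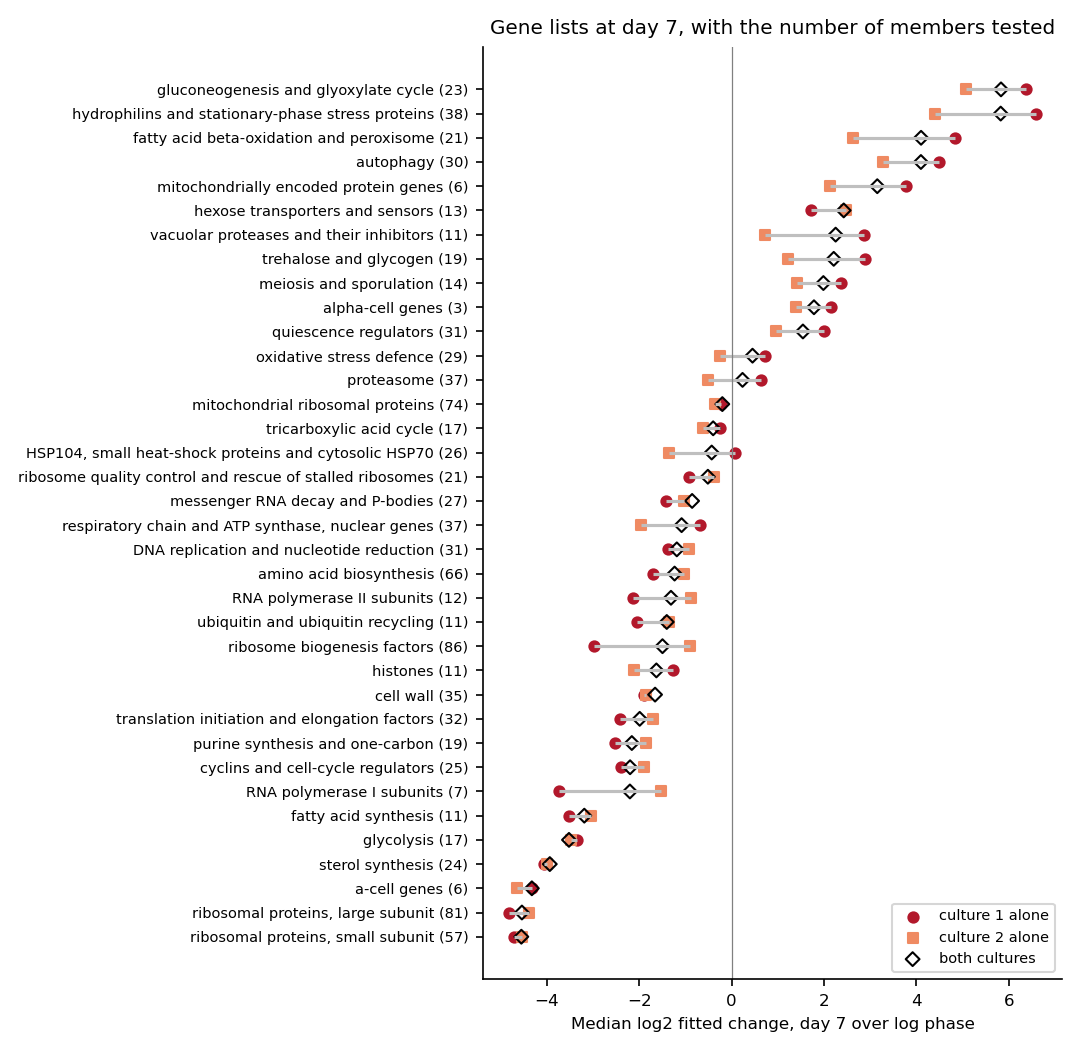
Median log2 fitted change at day 7 over log phase in 36 gene lists, for culture 1 alone (circles), culture 2 alone (squares) and both cultures (diamonds), with the number of members tested. Gluconeogenesis has the highest paired median, 5.83, the small-subunit ribosomal proteins the lowest, -4.55, and the cultures lie furthest apart for the RNA polymerase I subunits and the list of fatty acid beta-oxidation.

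The gap between the day 7 cultures was read gene by gene as culture 2 minus culture 1 in log2 normalised CPM, with no test, since each is 1 library. Its median over all genes tested was 0.11 (0.68 when scaled by total counts alone), and 573 genes stood more than 4-fold higher in culture 2 and 87 more than 4-fold higher in culture 1. In the log-phase pair 1 gene was so far apart. Genes that rose at day 7 had a median gap of -0.80 and genes that fell one of 0.54 (-0.22 and 1.09 when scaled by total counts alone), so in the typical called gene culture 2 lay nearer to log phase.

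Ribosome biogenesis factors, which assemble the ribosome, lay far apart in the cultures. Of the 86 genes 4 fell and 1 rose in the pair (median -1.50), although both day 7 libraries were below both log-phase libraries in 78 of them. That order held in 43.2% of all genes tested. Culture 1 alone had 84 lower (median -2.98) and culture 2 alone 63 lower (median -0.91). Culture 2 was the higher in 84 of the 86, by more than 4-fold in 55, with a median gap of 2.27. Fibrillarin, NOP1 (YDL014W), the methyltransferase of ribosomal RNA, had 291 normalised CPM in culture 2 and 25.3 in culture 1, against 1007 and 829 in log phase. RNA polymerase I, which transcribes ribosomal RNA, had a median gap of 2.53 over the 7 of its subunits that were listed. Of these 7, RPA12 and RPA190 fell in the pair. The ribosomal proteins had median gaps of 0.42 in the small and 0.48 in the large subunit, with no gene more than 4-fold apart (medians of 1.00 and 1.06 when scaled by total counts alone). On that scale the gap was 2.84 for ribosome biogenesis and 3.11 for RNA polymerase I. NOP16, an assembly factor of the large subunit, had the call opposite to its list and rose in the pair (1.16 ± 0.32 log2, SE), with 119.5 normalised CPM in culture 2 and 128 in culture 1.

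The genes with the widest gap in favour of culture 2, among those with at least 100 counts there, were of mixed function. TRM11, a methyltransferase of transfer RNA, had 120 counts in culture 2 and 1 in culture 1, against 462 and 302 in log phase. RRB1 (YMR131C), a ribosome assembly factor that escorts ribosomal protein L3, had 393 counts in culture 2 and 5 in culture 1, against 2279 and 1527 in log phase. DHR2, a helicase of ribosomal RNA processing, and YDR524W-C, of unknown function, had the same order. In these 4 genes culture 2 was below log phase and culture 1 far below it. In the others culture 2 was above log phase. The glucose transporter HXT2 (YMR011W) had 8392 normalised CPM in culture 2 and 398 in culture 1, against 1334 and 1432 in log phase, and was called higher in culture 2 alone (2.48 log2) and lower in culture 1 alone (-1.73). Glutamine synthetase, GLN1, showed the same crossing (2.35 in culture 2 and -1.79 in culture 1), as did the mitochondrial aldehyde dehydrogenase ALD5 (1.95 and -2.60). PHM6, a gene of phosphate starvation, was called in culture 2 (5.36) and not in culture 1 (0.64). None of these 8 genes was called in the pair.

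The 8 genes with the widest gap in favour of culture 1 all rose in the pair. They were RGI2, ADY2, CIT3, HSP42, YDL218W, RTN2, YAT1 and TKL2. The small heat-shock protein HSP42 (YDR171W) had 40.4 normalised CPM in culture 2 and 308 in culture 1, against 5.57 and 5.31 in log phase. RTN2, a reticulon of the endoplasmic reticulum, had 92.4 in culture 2 and 546 in culture 1, against 5.38 and 4.78 in log phase. Here both cultures lay above log phase, and they differed in how far.

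**Figure D3:**
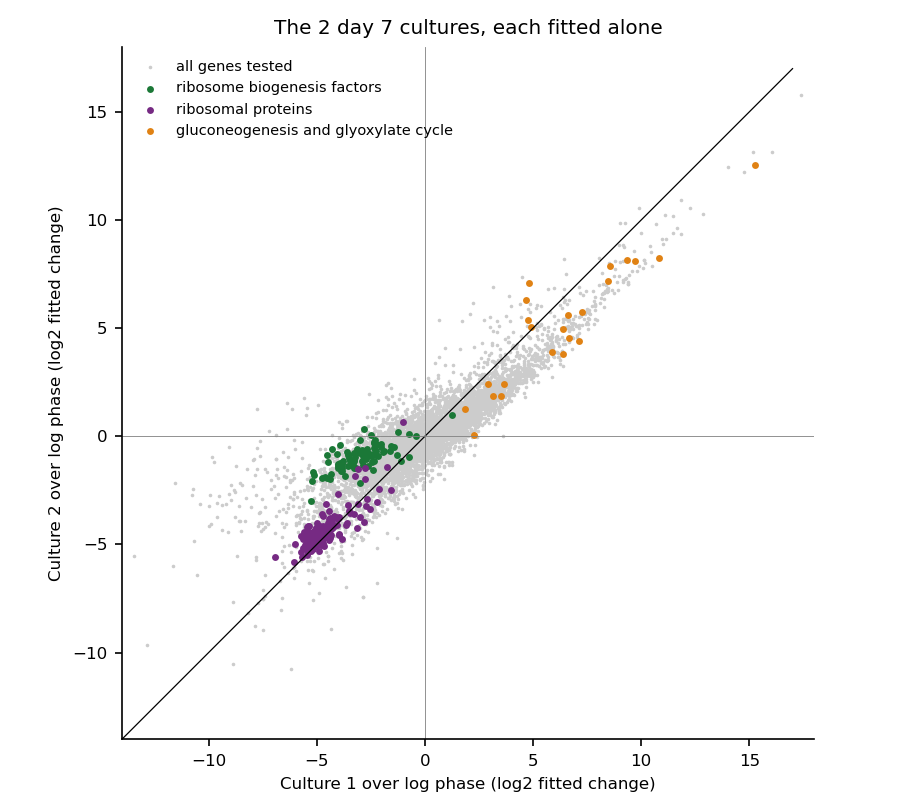
Log2 fitted change over log phase of each gene in culture 1 alone (x axis) and culture 2 alone (y axis), with the line of equality; both fits share the log-phase libraries. Nearly all ribosome biogenesis factors lie above the line (medians -2.98 and -0.91), ribosomal proteins close to it, and most gluconeogenesis and glyoxylate genes below it (medians 6.38 and 5.08).

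Promoter sequences were read for 5439 of the genes tested, from 250 bases before to 50 bases after the start codon in RefSeq's S288C assembly R64, which may differ in places from YPS1009. The motifs searched on both strands were AGGGG (STRE), TNAGGGAT, TTCNNGAA (a heat-shock element), GCGATGAG (PAC) and AAAATTTT (RRPE). TNAGGGAT, with any base at N, is a loose pattern for the post-diauxic shift element bound by Gis1. Its AGGGA shares most of its letters with the STRE. A match is a description of the window and not a bound site. Among the genes more than 4-fold higher in culture 2, a grouping made after the values were seen, PAC was in 14.8% of 559 promoters and RRPE in 24.7%, against 4.28% and 9.56% of all promoters. STRE was in 51.2% of the 84 promoters of genes more than 4-fold higher in culture 1, and in 13.1% of those higher in culture 2, against 21.7% of all. In the ribosome biogenesis list PAC was in 59.3% of promoters and RRPE in 81.4%, and in the large-subunit ribosomal proteins these were 1.23% and 7.41%. Among genes called in the pair, STRE was in 27.8% of those that rose and 17.4% of those that fell.

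PAC and RRPE had a larger share in promoters of genes more than 4-fold higher in culture 2 than over all promoters. RRB1 was among those genes, while KRR1 and GAR1 were taken from the ribosome biogenesis list and their gaps are not given. A PAC or RRPE site each of KRR1 and GAR1 and both of RRB1 are shown first. Each is a 30-base window upstream of the start codon, 5′ to 3′ on the strand of the gene, with the motif or its reverse complement in capitals.
RRB1 PAC, chrXIII:534785-534814, minus strand: aactgaatttaGCGATGAGatgatcatttc
RRB1 RRPE, chrXIII:534839-534868, minus strand: ttcgagccgtgAAAATTTTtttcctttcag
KRR1 PAC, chrIII:23464-23493, minus strand: taattcttttaGCGATGAGatatgaaaatt
GAR1 RRPE, chrVIII:283417-283446, minus strand: ttttgtagtgaAAAATTTTtcgagatgagg

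In RRB1 the motifs lie 97 bases (PAC) and 151 bases (RRPE) before the start codon. KRR1, a small-subunit assembly factor, has PAC 95 bases before, and it also holds 2 RRPE matches that are not shown. KRR1 was one of the 4 biogenesis factors called lower in the pair (-1.83 on the log2 scale), and GAR1, a protein of the pseudouridine-forming particles, was another (-3.57). Sites of 4 genes from the culture 1 side are shown for STRE. A match is also shown for each of the searched patterns of the post-diauxic shift element and the heat-shock element.
HSP42 STRE, chrIV:806427-806456, plus strand: ggccttggcggcAGGGGggaggcctctgtg
RTN2 STRE, chrIV:94433-94462, plus strand: cataggcaatctCCCCTtattgttcaccct
YAT1 STRE, chrI:190162-190191, plus strand: cacacccgcccaCCCCTcctttccgtatac
TKL2 STRE, chrII:476497-476526, minus strand: caattggcttgtCCCCTcttactgtagtct
SIP18 post-diauxic shift element, chrXIII:610871-610900, plus strand: gggcaattatcATCCCTCAgaatcaacatc
SSA2 heat-shock element, chrXII:97700-97729, minus strand: tcgaagtttttTTCTAGAAcattccatcga

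HSP42 holds 3 STRE matches in its window, and the others shown for STRE hold 1. SIP18, the gene with the largest fitted change, has no STRE match and 1 match to the searched letters TNAGGGAT. In that match the base at N, where the search allowed any base, is G. It is thus a match to the loose pattern only, and whether Gis1 binds it was not tested. SSA2, which fell, has 2 heat-shock element matches, and 61.5% of the chaperone list has at least 1, against 13.1% of all promoters.

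**Figure D4:**
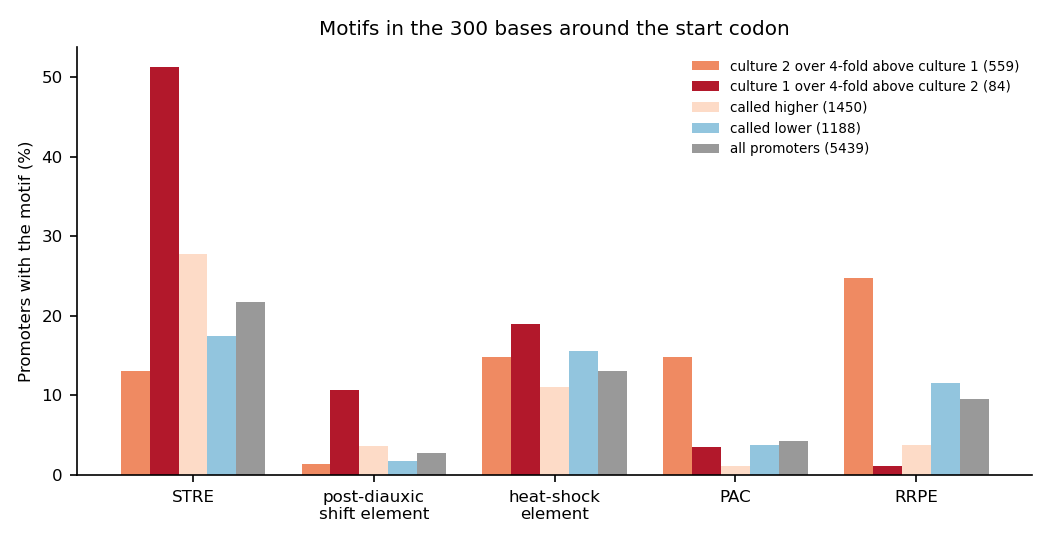
Share of promoters, in percent, with each of 5 motifs in the 300 bases around the start codon, for genes more than 4-fold higher in 1 day 7 culture than in the other, genes called higher or lower in the pair, and all promoters. Of the 5 groups plotted, PAC and RRPE have their highest bars in the genes higher in culture 2 (14.8% and 24.7%), and STRE in those higher in culture 1 (51.2%).

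The day 7 cultures were set beside days 1 and 3 of the same strain. Values of days 1 and 3 come from the fit of the 8 euploid libraries, and those of each day 7 culture from the fit of all 40. The ribosome biogenesis list had a median of -2.28 at day 1 and -3.61 at day 3, then -2.98 in culture 1 and -0.91 in culture 2 at day 7. The large-subunit ribosomal proteins had -2.97 at day 1 and -5.60 at day 3, then -4.81 and -4.39. Sterol synthesis had -0.61 at day 1 and -4.17 at day 3, then -4.06 and -3.99. Autophagy had 3.16 at day 1 and 4.62 at day 3, then 4.48 and 3.27. All of these changes share the log-phase libraries, and the difference between days was not tested.

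**Figure D5:**
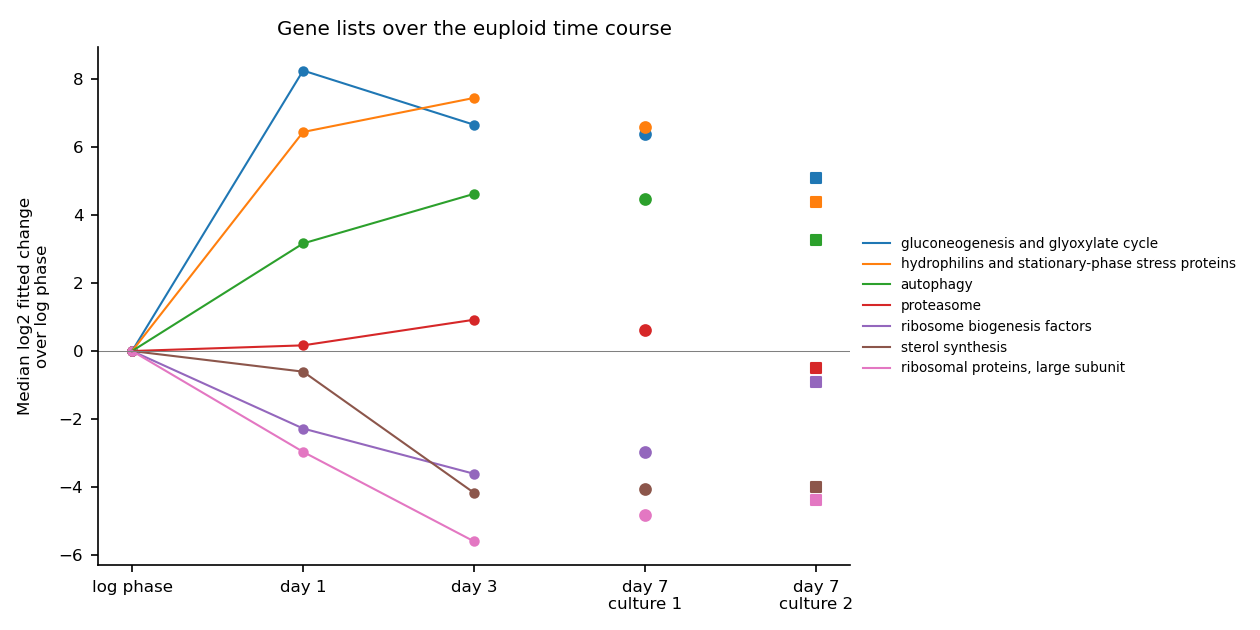
Median log2 fitted change over log phase of 7 gene lists at day 1 and day 3 (2 libraries each, joined by lines) and in each day 7 culture (separate points). Ribosome biogenesis is at -2.98 in culture 1 and -0.91 in culture 2, and sterol synthesis is at -4.06 and -3.99.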

How the data were processed

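Strand-specific, rRNA-depleted total RNA of 40 libraries (20 groups of 2 cultures) was sequenced. The authors' reads were aligned by bwa-meme against an S288c genome edited to hold YPS1009 SNPs, and raw HT-Seq counts per gene were deposited. The submitters' processing notes name Trimmomatic 0.39, BWA 0.7.12-r1039 and HTSeq 0.7.2. The S288c release is not given in the sources used here, so systematic names were matched to RefSeq (6025 of 6714 rows). The authors' scaling to Sz. pombe was not used here.

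Groups came from sample titles. The 4 libraries were fitted on their own with edgeR 4.0.16 (R 4.3.3, TMM, quasi-likelihood test, prior count 0.125, no block) over genes that reached 10 counts in 2 or more of them, adjusted by Benjamini and Hochberg's method at 0.05. Each culture alone was fitted among all 40 libraries. SE is the absolute log2 change over the square root of F. Code was tested on simulated data. Changes against groups at 0 are bounds from a floor of 3 counts per library, and those against 1 to 3 counts are pooled ratios. Intervals and floors cover counting error only. Where p-values are given, they measure the spread between these samples.

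The members and gene lists were chosen with earlier results of these data known. Named genes were first the 10 furthest called in each direction. These had to have at least 100 counts in both libraries of the higher group and no overlap of normalised CPM between the groups. The rule also named up to 3 called members with the largest and up to 3 with the smallest change in each list, and opposite calls. It further named the 8 widest gaps in each direction, label checks and genes the study perturbs. Other named genes were chosen after their values were seen. Alternatives were DESeq2 1.42.0, its size factors, total counts, protein-coding genes, other filters, other fits, a replicate block, prior count 2 and leave-one-out.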

Additional observations from a re-analysis of the deposited data

How the results depend on the processing

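The counts of genes higher and lower kept within 1.5 times of 1483 and 1212 under DESeq2's size factors or Wald test, protein-coding genes only, other filters, prior count 2 and the 8 euploid libraries. Total counts alone gave 691 lower, and 1265 lower in culture 2 alone, and the fit of all 40 libraries gave 2176 lower. Leaving out 1 library gave 438 to 2267 higher and 527 to 2485 lower, with the low values when a log-phase library was left out and the day 7 spread was kept. Of 231 named genes, 107 lost their call without log-phase replicate 1 and 104 without log-phase replicate 2. MFA1, which was not called (-0.13), changed sign to 0.13 with total counts alone, and ranged from -0.51 to 0.35 without 1 library, passing the threshold without day 7 replicate 1.

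The replicate block gave 1361 higher and 1393 lower and lost the call of 22 named genes. The differences between replicates 2 and 1 at day 7 and in log phase had a correlation of -0.07 over 4180 genes. With 2 libraries a group, such a correlation across genes cannot decide whether the replicate numbers pair the samples. With 2 libraries a group and a wide day 7 pair, depth limits genes low at day 7, of which 11 had no count there.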

Other observations

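Nutrient-uptake genes were read in lists added after the values were seen, so their counts are descriptions. Of 16 phosphate starvation genes 10 rose and none fell. The sodium-phosphate cotransporter PHO89 (YBR296C) had 3873 and 16985 counts at day 7, against 25 and 12 in log phase, and rose by 10.35 ± 0.76 (SE) on the log2 scale (adjusted p = 0.00582 by edgeR's quasi-likelihood test). The high-affinity carrier PHO84 had 5833 and 10442 normalised CPM at day 7, against 832 and 792 in log phase. The glycerophosphoinositol permease GIT1 had 788 and 1216 counts at day 7, against 2 and 2 in log phase. Its day 7 counts correspond to 768 and 486 normalised CPM. Acid phosphatase PHO5 was not called (36 and 41.6 normalised CPM at day 7, against 21.7 and 25.5 in log phase). Of 8 zinc genes 5 rose and 2 fell, and the zinc-sensing activator ZAP1 had 2894 and 971 normalised CPM at day 7, against 18.2 and 17.5 in log phase.

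Of 16 genes of nitrogen catabolite control 11 rose and 2 fell, and proline oxidase PUT1 had 490 and 485 normalised CPM at day 7, against 3.46 and 3.98 in log phase. The repressor DAL80 had 25 and 57 counts at day 7 (24.4 and 22.8 normalised CPM) and 0 and 0 in log phase. Of 16 iron uptake genes 6 fell, 2 rose and 8 were not called (median -0.34), against 21.8% lower over all genes tested. The iron permease FTR1 had 18.5 and 31.6 normalised CPM at day 7, against 472 and 493 in log phase. In sulfur amino acid metabolism 4 of 16 genes rose and 3 fell, shares near those over all genes tested (26.7% higher and 21.8% lower). The log2 change was 6.88 in the sulfate permease SUL1 and -5.59 in cystathionine gamma-lyase CYS3. The remaining lists read in this way were drug efflux (3 of 11 higher and 1 lower), galactose use (1 of 4 higher) and seripauperins (1 of 2 higher). These lists are small, and 26.7% of all genes tested were higher.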
